A study of Homo sapiens with 6 samples.

Results

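Mitophagy is the selective removal of mitochondria by autophagy. The kinase PINK1 builds up on damaged mitochondria and marks them with phosphorylated ubiquitin, the ULK kinases start the autophagosome, and receptors link the marked organelle to ATG8 proteins on the growing membrane. Optineurin (OPTN), p62 (SQSTM1), NDP52 (CALCOCO2) and TAX1BP1 bind ubiquitin chains, whereas FUNDC1 sits in the outer mitochondrial membrane and binds ATG8 proteins directly. GABARAPL1 is 1 of the ATG8 proteins. MUL1 is an E3 ubiquitin ligase of the same outer membrane, and ULK1 is among the proteins it is known to mark for degradation. Messenger RNA levels of 9 genes of this route were compared between cells with and without MUL1: the kinase genes PINK1, ULK1 and ULK2, the receptor genes FUNDC1, OPTN, SQSTM1, CALCOCO2 and TAX1BP1, and GABARAPL1. They were chosen by name, out of 57123 genes with counts.

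The cells were HEK293, an established human embryonic kidney line, grown in DMEM with serum and no labelled treatment, with 3 RNA-seq libraries labelled WT and 3 labelled MUL1(-/-), a line in which MUL1 had been inactivated by CRISPR-Cas9. The study used more than 1 clone elsewhere, and which clone gave these libraries is not given in the sources used here. Nothing in the labels says that the replicates were separate cultures, so p-values measure only the spread between these libraries, which may be technical.

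Each library came as raw counts over exon bins, the pieces of a gene between neighbouring exon edges, and the bins of a gene were added up. Gene counts totalled 127015142 to 142803296 in WT and 121917971 to 122441959 in MUL1(-/-), and CPM are these counts scaled to library size with TMM factors. MUL1 had 15.4, 15.2 and 19.0 CPM in WT and 18.7, 16.7 and 19.2 CPM in the libraries labelled MUL1(-/-) (log2 fold change 0.14, SE 0.10, edgeR adjusted p = 0.321), so its RNA level does not check the labels. Leaving out 1 library moved this value from 0.07 (without WT replicate 2) to 0.24 (without WT replicate 3, edgeR adjusted p = 0.0526). All 6 HEK293 markers exceeded 1 CPM in every library, although KRT8, PAX2 and VIM were lower and NEFM higher in MUL1(-/-), and their summed level was 1292 to 1511 CPM in WT and 922 to 1098 CPM in MUL1(-/-). Of 10 markers of other cell types, 8 stayed under 1 CPM in every library, the others being COL1A1 and COL1A2, and the list summed to 22.4 to 29.8 CPM in WT and 18.6 to 23.7 CPM in MUL1(-/-). In bulk RNA, fewer cells of a type and less RNA per cell cannot be told apart.

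Of the 9 genes, ULK2 and SQSTM1 rose in MUL1(-/-), GABARAPL1, OPTN, TAX1BP1 and CALCOCO2 fell, and PINK1, ULK1 and FUNDC1 did not pass the test (adjusted p under 0.05, edgeR's quasi-likelihood test with Benjamini-Hochberg adjustment over 25125 tested genes). The 2 genes called higher compare with 18.8% of all tested genes, and the 4 called lower with 18.7%. With library totals in place of TMM the split over all genes moved from 4716 higher and 4706 lower to 5871 and 3783. Only ULK2 also passed an absolute log2 fold change of 1, the second threshold of the study's methods, which 4.23% of tested genes passed in the upward direction. In 6 of the 9 genes the 3 values of one group lay wholly apart from the 3 of the other, against 48.5% of all tested genes. The median log2 fold change was -0.14 over the 9 genes and -0.01 over all tested genes. The plot of CPM by library shows these values gene by gene.

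**Figure D1:**
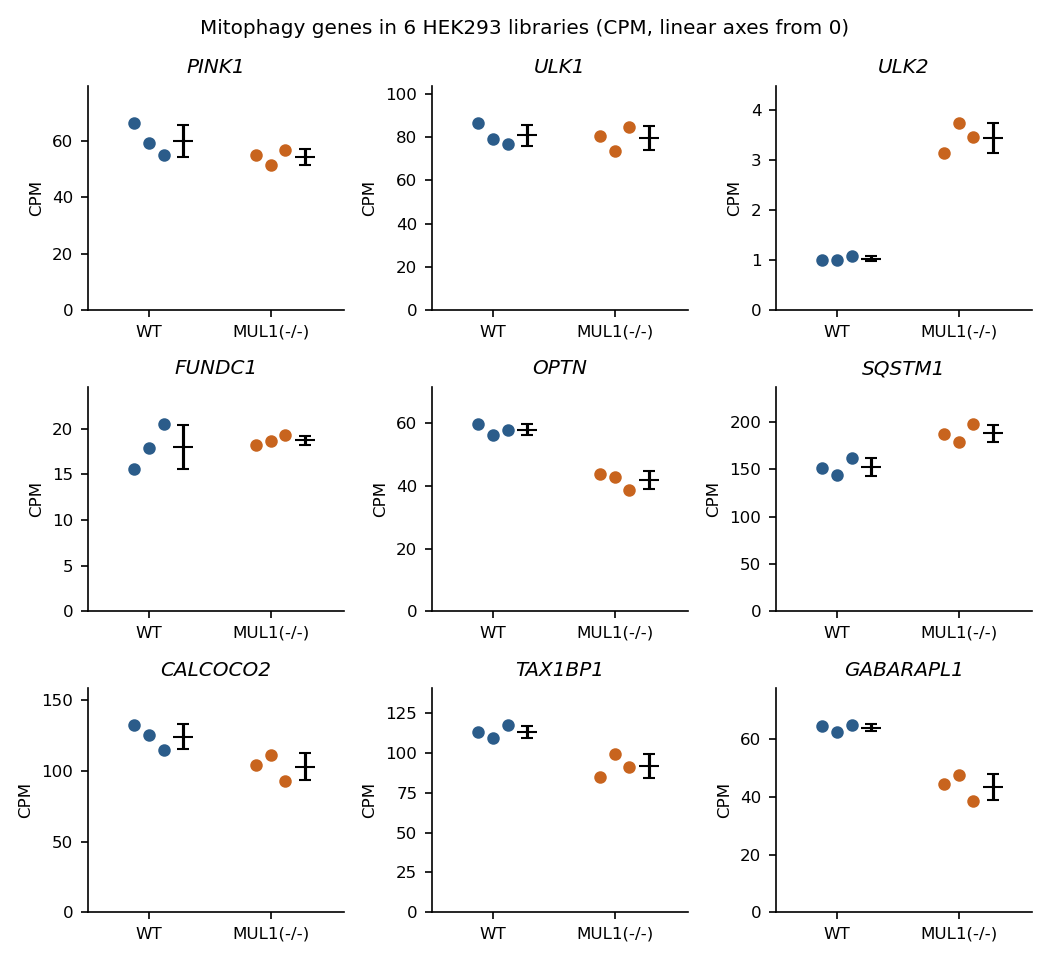
CPM of the 9 genes in each library on linear axes from 0; coloured points are libraries, and the black bar beside them is the mean with its SD (n = 3). ULK2 lies near 1 CPM in WT and above 3 CPM in MUL1(-/-), the receptors OPTN, TAX1BP1 and CALCOCO2 and the ATG8 gene GABARAPL1 lie lower in MUL1(-/-), and the groups overlap for PINK1, ULK1 and FUNDC1.

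Compared per kilobase of exon bins, the level of ULK2 was far below that of the other genes. In WT the order of mean CPM per kilobase was SQSTM1 (19.9 ± 1.21, SD, n = 3), GABARAPL1 (15.6 ± 0.302), CALCOCO2 (14.9 ± 1.07), FUNDC1 (12.9 ± 1.75), PINK1 (12.4 ± 1.17), TAX1BP1 (12.3 ± 0.426), OPTN (11.3 ± 0.321), ULK1 (10.6 ± 0.647) and ULK2 (0.105 ± 0.00549). Neighbours in that order had overlapping ranges over the libraries, except SQSTM1 with GABARAPL1, TAX1BP1 with OPTN, and ULK1 with ULK2. In MUL1(-/-), SQSTM1 stayed first at 24.5 ± 1.19 (SD, n = 3) CPM per kilobase and ULK2 last at 0.350 ± 0.0302, while GABARAPL1 stood at rank 5 with 10.7 ± 1.10. These levels divide by all annotated exon bases of a gene, used or not, and by the most counted bin alone, not divided by length, CALCOCO2 stood at rank 5 and PINK1 at rank 3 in WT. A read is also counted in every bin it touches, so a gene cut into more bins gains counts. CALCOCO2 had 71 bins, GABARAPL1 49 and FUNDC1 7, and neither this order nor the shares per kilobase below correct for that.

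Among the kinases, PINK1, which starts the ubiquitin-dependent route, had 66.1, 59.1 and 54.9 CPM in WT and 54.9, 51.3 and 56.7 CPM in MUL1(-/-). The groups overlapped, and the log2 fold change was -0.14 (SE 0.08, edgeR adjusted p = 0.173). It was -0.07 without WT replicate 1 (edgeR adjusted p = 0.577), -0.09 without MUL1(-/-) replicate 2 (0.492) and -0.21 without WT replicate 3 (0.0513). The 5′ end of MUL1, a gene on the minus strand, lies 125293 bases from PINK1 (ENSG00000158828; GRCh38 chromosome 1, 20633455 to 20651511, plus strand). The 10 tested genes on each side of it had a median log2 fold change of -0.58 (range -3.79 to 0.31), and 13 of these 20 were called lower and 0 higher. Its value is uncertain because 55.6% of its counts came from bins that also overlap another gene, chiefly (91.6% of those counts) the antisense gene PINK1-AS. Counting took no account of strand: where a plus-strand bin and a minus-strand bin had identical ends (12 such pairs), the typical pair had equal counts, with a median ratio of 1. PINK1-AS had a mean of 24.98 CPM in WT and 22.4 CPM in MUL1(-/-), and the bins of PINK1 that no other gene touches gave -0.13 (edgeR adjusted p = 0.321).

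ULK1, the kinase at the head of the autophagy initiation complex, had 86.3, 79.3 and 76.8 CPM in WT and 80.5, 73.7 and 84.8 CPM in MUL1(-/-). The groups overlapped throughout, with a log2 fold change of -0.02 (SE 0.08, edgeR adjusted p = 0.854). Protein was not measured here, and the study's western blots showed more ULK1 protein in HEK293 MUL1(-/-) cells. ULK1 (ENSG00000177169) spans 131894651 to 131923167 on the plus strand of chromosome 12, and none of its 43 tested exon bins passed the test of its share of the gene (described with SQSTM1).

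ULK2, a paralog of ULK1 that can act in the same complex, rose. Its summed counts were 128, 141 and 138 in WT and 397, 467 and 429 in MUL1(-/-), or 1.01, 0.997 and 1.10 CPM against 3.14, 3.73 and 3.46 CPM. Every MUL1(-/-) library lay above every WT library. The log2 fold change was 1.74 (SE 0.14, edgeR adjusted p = 2.18e-07), a 3.33-fold higher level. ULK2 (ENSG00000083290) runs from 19770829 to 19867936 on the minus strand of chromosome 17. The 20 tested genes around it had a median log2 fold change of 0.51, a range of -0.44 to 1.98, and 10 called higher and 1 lower, and the part that this neighbourhood has in the rise of ULK2 was not tested.

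The size of that rise depended on a single exon. A bin of ULK2, 115 bases long, held 58, 63 and 77 counts in WT and 111, 103 and 43 in MUL1(-/-), which was 48.6% ± 6.24 (SD, n = 3) of the gene's counts in WT and 20.01% ± 9.14 in MUL1(-/-) (p = 0.1 by an exact two-sided permutation test, which cannot go lower with 3 against 3 libraries). The bins on either side of it held at most 2 counts in any WT library and 3 to 10 in the MUL1(-/-) libraries. In GENCODE 29 this exon belongs to 1 transcript, ULK2-210, where it is exon 2 of 8, and that transcript is annotated as a target of nonsense-mediated decay.

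A stretch of 25 bases of this exon, on either strand, also occurred in the annotated transcripts of 232 other genes out of 58675, and a stretch of 50 bases in 0. The search covered annotated transcripts only, so it does not show that the exon is unique in the genome. In the other 49 bins of ULK2, no WT library had more than 10 counts in a bin. Summed over both groups of 3 libraries, 44 of those bins were higher in MUL1(-/-), 0 were lower and 5 were equal, 4 of the 5 being at 0 in every library. The longest of the well covered ones, 2359 bases at chr17:19773950-19776308 in the last exon, held 5, 9 and 10 counts in WT and 22, 38 and 32 in MUL1(-/-). The bins share reads and are not independent. Without the ULK2-210 exon, a choice made after seeing the bins, the counts were 70, 78 and 61 in WT and 286, 364 and 386 in MUL1(-/-). That was a log2 fold change of 2.38 (SE 0.17, edgeR adjusted p = 7.24e-08), 5.21-fold, and it stayed between 2.29 and 2.51 when each library was left out in turn. The exon alone gave 0.44 (SE 0.29, edgeR adjusted p = 0.259) and passed the test only without MUL1(-/-) replicate 3, at 0.76 (edgeR adjusted p = 0.00924). Its share of the gene was tested together with the 5 other ULK2 bins that had enough counts. Its log2 fold change less that of the gene, which includes this exon, was -0.70 (edgeR adjusted p = 0.0768). With limma, which sets a bin against the other bins of its gene, the difference was -2.14 (adjusted p = 4.45e-05), so these values are not the same measure. The edgeR call depended on the libraries: the share was lower without WT replicate 1 (-1.02, adjusted p = 0.00811), WT replicate 2 (-1.05, 0.00641), WT replicate 3 (-0.97, 0.00910) or MUL1(-/-) replicate 1 (-1.19, 7.03e-04), and was not called without MUL1(-/-) replicate 2 (-0.85, 0.0624) or replicate 3 (-0.55, 0.194). The plot of ULK2 counts by bin shows the spike in this exon against the low, even cover elsewhere.

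ULK1 made up 99.1%, 99.0% and 98.9% of ULK1 plus ULK2 in WT, in counts per kilobase, and 97.1%, 96.2% and 96.9% in MUL1(-/-). All 3 MUL1(-/-) shares lay below all 3 WT shares, with a mean 2.27 percentage points lower (p = 0.1 by the exact permutation test, its lowest). With the most counted bin of each gene the shares overlapped, at 95.0%, 95.0% and 93.7% in WT and 90.1%, 90.8% and 96.2% in MUL1(-/-) (p = 0.4 by the exact permutation test). ULK1 gave over 90% of the RNA of the pair in every library either way. The promoters of the pair are shown because ULK2 passed the test and ULK1 did not, as the 250 bases before the start in the RefSeq table of GRCh38.p14, in the 5′ to 3′ direction of the gene, with capitals on the 1 motif match in each. The ULK1 window is chr12:131894372-131894621 on the plus strand and the ULK2 window chr17:19867937-19868186 on the minus strand.
ULK1 promoter: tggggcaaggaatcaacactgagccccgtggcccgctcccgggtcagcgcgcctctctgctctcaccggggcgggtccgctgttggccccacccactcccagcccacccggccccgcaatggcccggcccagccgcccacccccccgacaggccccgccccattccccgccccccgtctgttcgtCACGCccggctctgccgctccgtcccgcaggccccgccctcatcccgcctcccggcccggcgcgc
ULK2 promoter: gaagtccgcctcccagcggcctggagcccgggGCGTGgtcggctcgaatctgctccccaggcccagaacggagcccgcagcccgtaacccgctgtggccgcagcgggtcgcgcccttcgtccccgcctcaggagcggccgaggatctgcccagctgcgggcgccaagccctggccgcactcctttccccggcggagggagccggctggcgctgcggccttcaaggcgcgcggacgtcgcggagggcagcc

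The match in both is GCGTG, a core of hypoxia response elements, 65 bases before the start on the opposite strand in ULK1 and 218 bases before it in ULK2. It occurs in 32.2% of 35116 RefSeq windows of this length. The motifs searched, on both strands, were CACGTG (the E-box core of the CLEAR element bound by TFEB), TGACNNNGC (antioxidant response element), GTAAACA (FOXO), ACGTG (a hypoxia response core that overlaps CACGTG) and GCGTG. The table held 12 windows for 8 of the 9 genes, with PINK1 unmatched, and 8 of the 12 had no match. CACGTG, present in 6.34% of all windows, was in 0 of the 12. CALCOCO2 had TGACNNNGC (10.9% of all windows), GTAAACA (2.98%) and ACGTG (18.5%), and 1 window of TAX1BP1 had GCGTG. A match is a description of the letters only.

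Among the receptors, SQSTM1 (p62), which binds ubiquitin and ATG8 proteins and is itself degraded by autophagy, was the 1 of 5 that rose. It had 152, 143 and 162 CPM in WT and 187, 179 and 197 CPM in MUL1(-/-), with no overlap. Its log2 fold change was 0.30 (SE 0.07, edgeR adjusted p = 0.00306), or 1.23-fold, while its 20 chromosome neighbours had a median of -0.03. SQSTM1 (ENSG00000161011; chromosome 5, 179806398 to 179838078, plus strand) had 27.1% of its counts in bins that another gene overlaps, and the other bins gave 0.32 (edgeR adjusted p = 0.00205).

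The first exons of SQSTM1 did not follow its rise. In a test of each bin's share of its gene (edgeR's diffSpliceDGE, 313195 bins), 6 of the 264 tested bins of the 9 genes were called at an adjusted p under 0.05, all 6 in SQSTM1 and all with a lower share in MUL1(-/-), against 0.582% of all tested bins in that direction. Of these, 5 lay between 179806408 and 179813598, before the main start near 179820905, in exons of the non-coding transcripts SQSTM1-210, SQSTM1-211 and SQSTM1-214 and of the coding transcript SQSTM1-215. None of these 5 bins is coding in any transcript. The largest fall was in the bin at chr5:179813025-179813598, with 172, 179 and 172 counts in WT and 121, 134 and 82 in MUL1(-/-), a log2 difference from the gene of -0.87 (edgeR adjusted p = 6.88e-06). Its first 150 of 574 bases, at chr5:179813025-179813174 in SQSTM1-211, are shown because, with all libraries, this bin had the largest difference from the gene of the 37 tested.
SQSTM1 upstream bin: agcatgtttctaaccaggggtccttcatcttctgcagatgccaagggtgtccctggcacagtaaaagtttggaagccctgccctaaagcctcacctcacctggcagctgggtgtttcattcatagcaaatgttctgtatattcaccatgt

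No 25-base stretch of this bin, on either strand, occurred in the transcripts of another gene. Of the other 5 bins called, 1 (chr5:179806408-179806591) overlaps another gene, and so does the bin at the 3′ end (chr5:179837256-179838078), which had a log2 difference of -0.39 (edgeR adjusted p = 0.0100). The 9 upstream bins together (179806398 to 179813641), a group formed after seeing the bins, held 1429, 1380 and 1276 counts in WT and 1167, 1070 and 893 in MUL1(-/-). The other bins begin at 179818878, so the division lies before the main start. The upstream group was 6.83% ± 0.585 of the gene's counts in WT and 4.45% ± 0.697 in MUL1(-/-) (SD, n = 3, p = 0.1 by the exact permutation test, its lowest). Fitted as a row of their own they gave a log2 fold change of -0.32 (SE 0.11, edgeR adjusted p = 0.0329), and the other 33 bins 0.34 (SE 0.07, adjusted p = 0.00158). The fall of the upstream group lost its call without WT replicate 1 (adjusted p = 0.154), WT replicate 2 (0.0510), MUL1(-/-) replicate 2 (0.0596) or MUL1(-/-) replicate 3 (0.103), all by edgeR. The count of bins called in SQSTM1 was 3 to 7 when a library was left out, the lowest without WT replicate 1. Over the 9 genes it was 4 to 8, which took in the ULK2-210 exon without 4 of the libraries and the first bin of PINK1 (chr1:20633455-20633678), with a higher share in MUL1(-/-), without WT replicate 1 (0.52, edgeR adjusted p = 0.0422) or WT replicate 3 (0.51, 0.0460). The plot of bin use along SQSTM1 shows the step between the upstream exons and the rest.

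**Figure D2:**
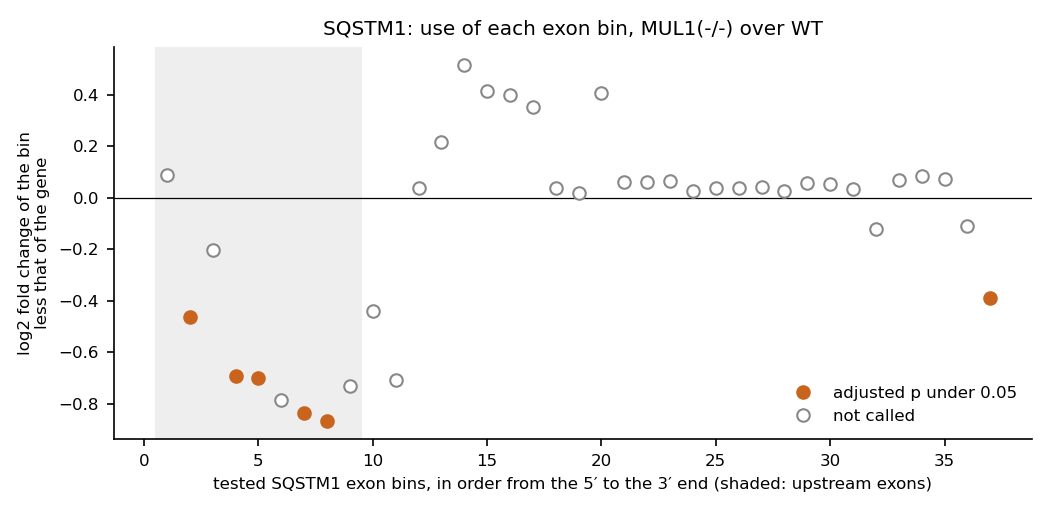
Log2 fold change of each of the 37 tested SQSTM1 bins less that of the gene, MUL1(-/-) over WT, in order from the 5′ to the 3′ end. Filled points passed the test, and the shaded bins are the upstream group, which ends at 179813641, before the main start. All but the first of the shaded bins lie below 0, and the called one at the right is the 3′ end.

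OPTN, which recruits the autophagy machinery to ubiquitin-marked mitochondria, had 59.6, 56.3 and 58.0 CPM in WT and 44.0, 43.0 and 38.7 CPM in MUL1(-/-). Every MUL1(-/-) value was lower, and the log2 fold change was -0.47 (SE 0.07, edgeR adjusted p = 1.43e-04). OPTN (ENSG00000123240; chromosome 10, 13099449 to 13138308, plus strand) lies among 20 tested genes with a median of 0.03, of which 1 was called. None of its 32 tested bins passed the test of its share of the gene.

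TAX1BP1, a receptor related to CALCOCO2, had 113, 109 and 117 CPM in WT and 84.8, 99.4 and 91.2 CPM in MUL1(-/-), without overlap. The log2 fold change was -0.30 (SE 0.07, edgeR adjusted p = 0.00432). TAX1BP1 (ENSG00000106052; chromosome 7, 27739331 to 27844564, plus strand) had 8.20% of its counts in bins shared with another gene, and its 20 neighbours had a median of -0.13.

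CALCOCO2 (NDP52) had 132, 125 and 114 CPM in WT and 104, 111 and 92.6 CPM in MUL1(-/-). The groups did not overlap, but the lowest WT and the highest MUL1(-/-) library were close. The log2 fold change of -0.27 (SE 0.08, edgeR adjusted p = 0.0152) passed the test with all libraries. The call was lost without WT replicate 1 (adjusted p = 0.0781), without WT replicate 2 (0.0501), without MUL1(-/-) replicate 3 (0.0534), with library totals (0.0546) and with the most counted bin alone (0.186), all by edgeR and all with a negative log2 fold change. CALCOCO2 (ENSG00000136436) lies on chromosome 17, 48830988 to 48866522 on the plus strand, among 20 tested genes with a median of -0.19, of which 7 were called lower and 0 higher.

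FUNDC1, the receptor anchored in the mitochondrial membrane, had 15.6, 17.9 and 20.5 CPM in WT and 18.2, 18.7 and 19.3 CPM in MUL1(-/-). The MUL1(-/-) values lay within the range of the WT values, with a log2 fold change of 0.06 (SE 0.10, edgeR adjusted p = 0.686). FUNDC1 (ENSG00000069509) is on the X chromosome, 44523639 to 44543001 on the minus strand.

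GABARAPL1, which sits on the autophagosome membrane and binds the receptors, fell the most of the 9 genes. It had 64.5, 62.5 and 64.8 CPM in WT and 44.5, 47.5 and 38.6 CPM in MUL1(-/-). The groups lay wide apart, with a log2 fold change of -0.55 (SE 0.08, edgeR adjusted p = 7.08e-05). GABARAPL1 (ENSG00000139112; chromosome 12, 10212458 to 10223130, plus strand) shared 1.28% of its counts with other genes, and its near-identical copy GABARAPL3 was listed with at most 8 counts in any library. Its 20 neighbours had a median of -0.28, with 5 called lower and 3 higher, and the part of this neighbourhood in its fall was not tested. In the test of bin shares, 0 of its 38 tested bins passed (smallest edgeR adjusted p = 0.607).

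Within the ATG8 family, GABARAPL1 fell while its relative GABARAP rose. GABARAPL1 was 27.3%, 27.1% and 26.9% of the 7 ATG8 genes in WT, in counts per kilobase, and 19.2%, 19.7% and 16.4% in MUL1(-/-). Every MUL1(-/-) share lay below every WT share (p = 0.1 by the exact permutation test, its lowest). GABARAP went from 29.4% ± 0.924 to 38.8% ± 1.11 (SD, n = 3; p = 0.1 by the exact permutation test), with a log2 fold change of 0.40 (SE 0.07, edgeR adjusted p = 4.54e-04). Since 87.5% of the GABARAP counts came from bins that another gene overlaps, its level is uncertain, and so are the family shares, which all include it. The shares were not computed without those bins. The other bins of GABARAP gave a log2 fold change of 0.39 (edgeR adjusted p = 0.0212). GABARAPL2 (29.8% ± 1.19 and 29.2% ± 0.863) and MAP1LC3B, the gene of the marker protein LC3B (13.0% ± 0.0985 and 12.9% ± 0.149), had p = 0.5 and p = 0.4 in the exact permutation test, and MAP1LC3A, MAP1LC3B2 and MAP1LC3C were each under 1% in every library.

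The fold changes of the 9 genes are plotted beside those of their chromosome neighbours.

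**Figure D3:**
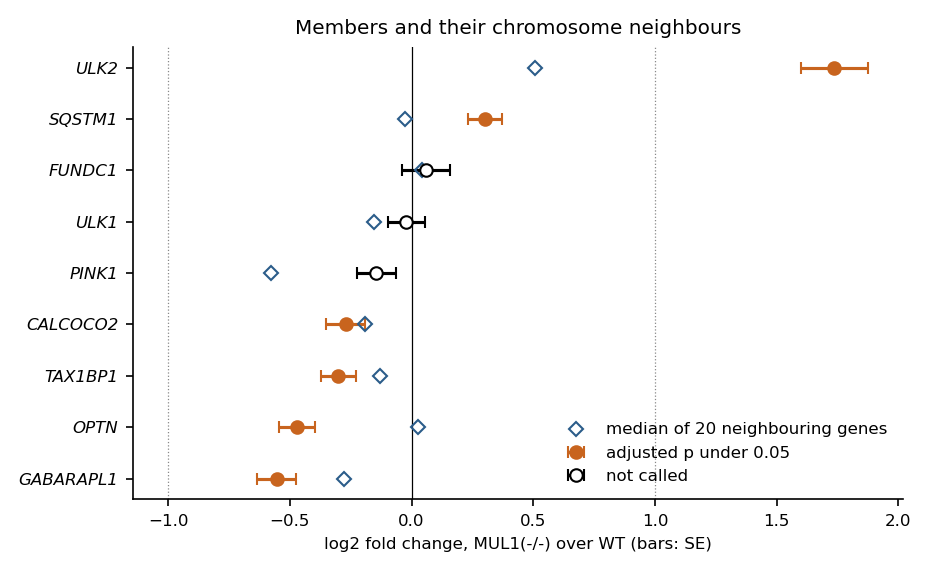
Log2 fold change of each gene, MUL1(-/-) over WT, with its SE (circles, filled where the adjusted p was under 0.05), and the median of its 20 neighbouring tested genes (diamonds); dotted lines mark an absolute log2 fold change of 1. ULK2 lies above the median of its neighbours (0.51) and PINK1 above that of its own (-0.58), and the medians for OPTN and SQSTM1 are near 0. The diamonds do not show the spread of the neighbours, which ran from -0.44 to 1.98 around ULK2 and from -3.79 to 0.31 around PINK1, so neither gene lay outside it.

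The genes nearest in pattern were found for the 3 called genes with the largest fold changes, by the Euclidean distance of centred log2 CPM over the 6 libraries among 15858 genes. For ULK2 they were GUCY1B2 (distance 0.19) and CEACAM19 (0.22). GABARAPL1 had NPM1P27 and CBFA2T2, both at 0.08, and OPTN had NFATC1 and LPCAT3, both at 0.04. All 6 lie on other chromosomes than the gene they resemble. GUCY1B2, the closest to ULK2, went from a mean of 0.705 CPM in WT to 2.53 CPM in MUL1(-/-), and LPCAT3, an enzyme gene of phospholipid remodelling, from 92.4 to 67.1 CPM.

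Other genes of the pathway, in 5 lists of 83 genes, moved in both directions: 20 rose, 19 fell and 44 did not pass the test, with a median log2 fold change of -0.03. That was 24.1% and 22.9%, near the shares over all tested genes. The number that rose was 12 without WT replicate 2, and the number that fell was 12 without WT replicate 1, 11 without MUL1(-/-) replicate 1 and 12 with library totals. Chromosome neighbours were compared for the 9 genes and not for the list genes, so a regional part in these changes was not tested. The plot of the lists shows each gene.

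**Figure D4:**
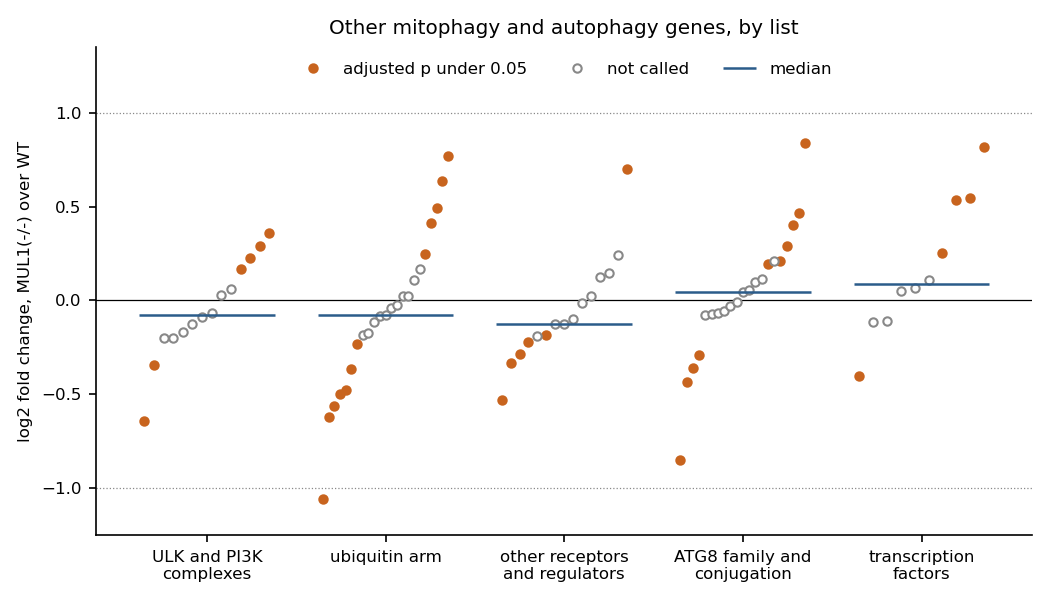
Log2 fold change, MUL1(-/-) over WT, of the genes of each list in rising order; filled points passed an adjusted p under 0.05, blue lines are list medians and dotted lines mark an absolute log2 fold change of 1. The medians lie between -0.13 and 0.09, and only MARCHF5 lies beyond a dotted line.

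Around ULK1, in the ULK and PI3K complexes and their regulators, 4 of 14 genes rose and 2 fell (28.6% and 14.3%, against 18.8% and 18.7% of all tested genes). ATG101, which stabilises the ULK complex, rose from 21.9 ± 3.32 to 28.1 ± 1.62 CPM (SD, n = 3; log2 fold change 0.36, edgeR adjusted p = 0.0111), and 41.8% of its counts are in shared bins. RPTOR (0.29), AMBRA1 (0.23) and BECN1 (0.17, edgeR adjusted p = 0.04997) also rose. MTOR, the kinase that restrains ULK1, fell from 191 ± 9.14 to 122 ± 3.36 CPM (SD, n = 3; log2 fold change -0.64, edgeR adjusted p = 2.79e-06). PRKAA1, a catalytic subunit of AMPK, which activates ULK1, fell by 0.35 on the log2 scale.

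In the ubiquitin arm, which acts with PINK1, 5 of 23 genes rose and 7 fell (21.7% and 30.4%, against 18.8% and 18.7% of all tested genes). MARCHF5, another E3 ligase of the outer mitochondrial membrane, fell from 61.2 ± 1.27 to 29.4 ± 1.80 CPM (SD, n = 3; log2 fold change -1.06, edgeR adjusted p = 5.82e-08) and was the single gene of the 83 past both thresholds. Genes of the import channel that PINK1 uses differed in direction: TOMM40 rose (log2 fold change 0.77), while TOMM20 (-0.56) and TOMM7 (-0.37) fell. TOMM22 and TOMM70 did not pass the test. Of the proteases that process or clear PINK1, PARL (0.64) and LONP1 (0.49) rose, PMPCB fell (-0.50), and AFG3L2 and OMA1 did not pass the test. PARL had 87.2% of its counts in shared bins, and its other bins gave 0.71 (edgeR adjusted p = 3.64e-05). Of a pair named after their values were seen, MFN2, which MUL1 is known to mark, fell (log2 fold change -0.48, edgeR adjusted p = 1.19e-04), while its paralog MFN1 rose (0.41, edgeR adjusted p = 7.49e-04). These values are RNA only, and the study's western blots showed more MFN2 protein in HEK293 MUL1(-/-) cells.

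Of the other receptors and their regulators, 1 rose and 5 fell of 15 (6.67% and 33.3%, against 18.8% and 18.7% of all tested genes). The fall included BNIP3 (-0.53), the receptor relative FUNDC2 (-0.33) and FKBP8 (-0.29), with BNIP3L (-0.22) and PHB2 (-0.18) below them. PGAM5, the phosphatase that acts on FUNDC1, rose from 81.4 ± 6.67 to 132 ± 5.04 CPM (SD, n = 3; log2 fold change 0.70, edgeR adjusted p = 3.91e-06).

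In ATG8 conjugation and membrane supply, 6 of 21 genes rose and 4 fell (28.6% and 19.0%, against 18.8% and 18.7% of all tested genes). The proteases ATG4D (log2 fold change 0.84) and ATG4A (0.46), which trim ATG8 proteins, rose beside GABARAP, and ATG4C fell (-0.29). WIPI1 (-0.36) and ATG10 (-0.44) fell too, but another gene overlaps the bins that hold 97.4% of the ATG10 counts, and its other bins gave -0.92 (edgeR adjusted p = 4.08e-06). MAP1LC3B2, a near-identical copy of MAP1LC3B at under 1 CPM, was also called lower and is uncertain for that reason.

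The last list of 10 genes held transcription factors known to act on autophagy genes and KEAP1, which is not a transcription factor. Of these 10, 4 rose and 1 fell (40.0% and 10.0%, against 18.8% and 18.7% of all tested genes). KEAP1, the adaptor that p62 binds and that holds NRF2 down, rose from 43.3 ± 4.58 to 76.2 ± 11.1 CPM (SD, n = 3; log2 fold change 0.82, edgeR adjusted p = 1.72e-05). MITF (0.55) and FOXO1 (0.25) were also among those that rose, and ATF4 fell (-0.40). TFEB, at 9.44 ± 1.43 CPM in WT and 8.70 ± 1.73 in MUL1(-/-) (SD, n = 3), TFE3 and NFE2L2 did not pass the test (adjusted p = 0.561, 0.334 and 0.276, edgeR).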

How the data were processed

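RNA from 3 WT and 3 MUL1(-/-) HEK293 samples was sequenced with a SMARTer library kit. The authors deposited raw counts per exon bin, without normalization, in 1 table per sample (597973 bins, GRCh38). The submitters' processing notes name Trimmomatic 0.36 and STAR 2.5.2b; the counting program and annotation release are not given in the sources used here. The study's methods used DESeq2's Wald test.

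Bins were summed per gene. Bins under identifiers that join overlapping genes (20.98% of counts) were given to 1 gene by same-strand GENCODE 29 exons, which left out 4.37% of counts. A read is counted in every bin it touches, so sums exceed the number of reads and neighbouring bins are not independent. At this depth 1 count was 0.00707 to 0.00807 CPM. Replicates differed by 2.75 to 9.51 times sampling noise (chi-square over degrees of freedom, most counted bins), so each was kept.

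Genes and bins were tested with edgeR 4.0.16 in R 4.3.3 (TMM, filterByExpr, quasi-likelihood, diffSpliceDGE, Benjamini-Hochberg), all 6 libraries, no covariates, and shares with exact permutation tests (scipy 1.17.1). Scripts were tested on simulated data. Alternatives used DESeq2 1.42.0, limma 3.58.1, other scalings, filters and bin choices, a replicate block and leaving out each library; 2 were added after seeing the data. Same-numbered samples' deviations correlated at -0.08 to 0.16 (mean 0.06, against a mean of -0.03 for other pairs). No pairing was used, and whether the numbers mark a shared batch was not tested.

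The genes and lists were chosen with earlier results of these data known. Named genes were the 9 members, MUL1, per list the 3 largest called changes in each direction with a mean of at least 1 CPM, others where a count of 5 or fewer needs them, and the 2 genes nearest in pattern to each of 3 members. The remaining import channel and protease genes of the ubiquitin arm were named too, so that both directions are seen. Promoter windows came from RefSeq (GRCh38.p14) and exon sequence from GENCODE 29 transcripts. Protein sequences were not analysed here. Some items that this rule would name are not reported here, though the list counts include them.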

Additional observations from a re-analysis of the deposited data

How the results depend on the processing

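Over 15 alternatives, the number of the 9 genes called higher was 2 in all but 1: with the most counted bin of each gene it was 1, and the number past both thresholds was 0, since the most counted bin of ULK2 is the ULK2-210 exon (log2 fold change 0.46, adjusted p = 0.195, edgeR). Without that exon, an alternative added after seeing the data, ULK2 was at 2.38. The number called lower was 3 to 4. OPTN, TAX1BP1 and GABARAPL1 were called lower under every alternative; CALCOCO2 lost its call under 5. ULK1, not called in any, had a positive log2 fold change with library totals (0.050) and with no filter (0.010), and ranged from -0.068 to 0.045 when a library was left out. FUNDC1, not called in any either, ranged from -0.038 to 0.157. PINK1, also uncalled throughout, ranged from -0.209 to -0.073. The upstream bins of SQSTM1, also added later, went against the gene (-0.32). Of the pathway list genes, 12 to 18 were called higher and 11 to 22 lower when a library was left out, and 12 were called lower with library totals; the cause was not tested. ULK1's share of the pair differed by -2.90 percentage points in summed counts not divided by length, which weight the longer ULK2 more, and by -2.20 with the most counted bin, where the groups overlapped. With the replicate block, a fit that takes the sample numbers as a factor although the labels name no pairing, 2 genes were called higher and 4 lower, 1 passed both thresholds, and 6 member bins were called. ULK2 is limited by depth, with at most 10 counts in any bin of a WT library outside that exon.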
